A study of Neurospora crassa with 24 samples.

Results

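The genes examined here are 6 genes of pigment formation in the ascomycete *Neurospora crassa*, chosen by their locus tags: the perithecial polyketide synthase gene *per-1* (NCU03584), the hydroxynaphthalene reductase genes *tnr-1* (NCU09390) and *tnr-2* (NCU06905), the scytalone dehydratase gene *scy-1* (NCU07823), the tyrosinase gene *T* (NCU00776) and the laccase gene *lacc* (NCU04528). They are 6 of the 10561 genes in the count table, and all 6 passed the filter on low counts that left 9412 genes for testing. RNA-seq was carried out on 4 strains kept at 22°C on synthetic crossing medium, in constant light or constant darkness. The study's methods give cultures 7 days before fertilization, and these samples were collected 1 day before fertilization. The tissue was thus unfertilized, and it was scraped from the surface of the plates. Its shares of mycelium, female structures and tissue forming asexual spores were not measured. RNA of genes that mark asexual spore formation was present, at levels given below. The strains were the one labelled ∆*ve-1* ∆*wc-1*, the one labelled ∆*wc-1*, the ∆*ve-1* mutant and the wild type. VE-1 is a protein of the velvet family of fungal regulators of development. WC-1 is the photoreceptor for blue light of the white collar complex. Each combination of strain and light condition had 3 libraries, 24 in all, and every strain was grown in the same way. The study asked how VE-1 and the perception of light act together on sexual development.

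In dihydroxynaphthalene melanin synthesis, a polyketide synthase makes a hydroxylated naphthalene, reductases reduce it, scytalone dehydratase removes water between the reductions, and an oxidase, often a laccase, polymerizes the last product. *per-1* mutants of *N. crassa* make perithecia without dark pigment, and in the wild type the female structures darken as they develop into perithecia. Tyrosinase is a copper enzyme that oxidizes tyrosine towards another kind of melanin and is induced in starved mycelium and in sexual tissue, and the product of *lacc* is a secreted multicopper oxidase that oxidizes phenols.

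The total count per library was 30246878 to 42697941, with a median of 36631798. Library composition varied: between 6.41 and 27.1% of the counts belonged to the 10 most abundant genes, and even numbers made up 59.8 to 93.3% of the counts over 100 and up to 1000, so the counts are not counts of independent molecules. Light replicate 1 labelled ∆*wc-1* stood apart, with Spearman rank correlations over all genes of 0.808 and 0.793 with the other two light libraries of that strain, which had 0.987 with each other. Wild-type dark replicate 3 had 0.936 and 0.930 with replicates 1 and 2, which had 0.985 with each other. It was closer to light replicates 2 and 3 labelled ∆*wc-1*, with 0.964 and 0.959. ∆*ve-1* light replicate 1 had 0.928 and 0.889 with light replicates 2 and 3 of that strain, which had 0.983 with each other. That library had 0.962 with dark replicate 3 and 0.945 with light replicate 1 labelled ∆*ve-1* ∆*wc-1*. Of the ∆*ve-1* ∆*wc-1*-labelled libraries, dark 1 and light 3 had 0.992, while no 2 libraries of 1 condition of that strain were above 0.945. *ve-1* was lower in all the libraries labelled as lacking it, by log2 fold changes of -6.55 to -5.33, but *wc-1* was not: in the dark it had a log2 fold change of 1.46 in the ∆*wc-1*-labelled libraries against the wild type (edgeR adjusted p = 1), and in light -0.27. Libraries that should lack WC-1 are therefore named by their label. The summed level of 5 genes that mark asexual spore formation (*con-6*, *con-8*, *con-10*, *eas* and *fl*) was 84831 to 139018 CPM in wild-type light and 1022 to 3439 CPM in wild-type dark, and 38555 to 80900 CPM in ∆*ve-1* light and 18028 to 36163 CPM in ∆*ve-1* dark. The ∆*wc-1*-labelled libraries had sums of 682 to 3802 CPM in light and 1388 to 4460 CPM in the dark. In the ∆*ve-1* ∆*wc-1*-labelled libraries the sums were 8620 to 19045 CPM in light and 9322 to 19712 CPM in the dark. *eas*, a hydrophobin gene, made up most of the mean sum in wild-type light and in ∆*ve-1* dark, and between ∆*ve-1* light and wild-type light the means of the 5 differed in direction, with *eas* and *fl* lower and *con-6*, *con-8* and *con-10* higher in ∆*ve-1*, none of them called.

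The members lie on 4 chromosomes of assembly NC12. *per-1* lies on chromosome V (1714456 to 1721951), *scy-1* on chromosome III (985729 to 986672) and *T* on chromosome I (7210768 to 7212976). *tnr-2* (719978 to 721156), *tnr-1* (1264603 to 1266767) and *lacc* (1565531 to 1568002) are all on chromosome VII, but 543446 bases separate *tnr-2* from *tnr-1* and 298763 bases separate *tnr-1* from *lacc*, so the genes of the pathway do not form a cluster. The members other than *T* overlap no other annotated protein-coding gene. *T* lies wholly inside the annotated span of NCU00777 (chromosome I, 7209435 to 7213099). Reads were counted by strand, but the strands of both genes are not given in the sources used here. The counts of *T* are uncertain for that reason.

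Values are given as CPM, the count scaled to the library total and its TMM normalization factor. Per kilobase of gene span, *scy-1* had the highest mean level over the 24 libraries, 92.7 CPM per kb, followed by *tnr-1* with 46.9 and *tnr-2* with 45.9 CPM per kb. The oxidase genes were lower, with 9.33 CPM per kb for *T* and 6.66 for *lacc*, and *per-1*, the longest gene, had 3.65 CPM per kb. The spread between libraries differed less between members than the level did. From the lowest to the highest library, *T* covered a 26.3-fold range and *per-1* a 23.2-fold range, against 6.03-fold for *tnr-2* and 7.85-fold for *scy-1*.

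**Figure D1:**
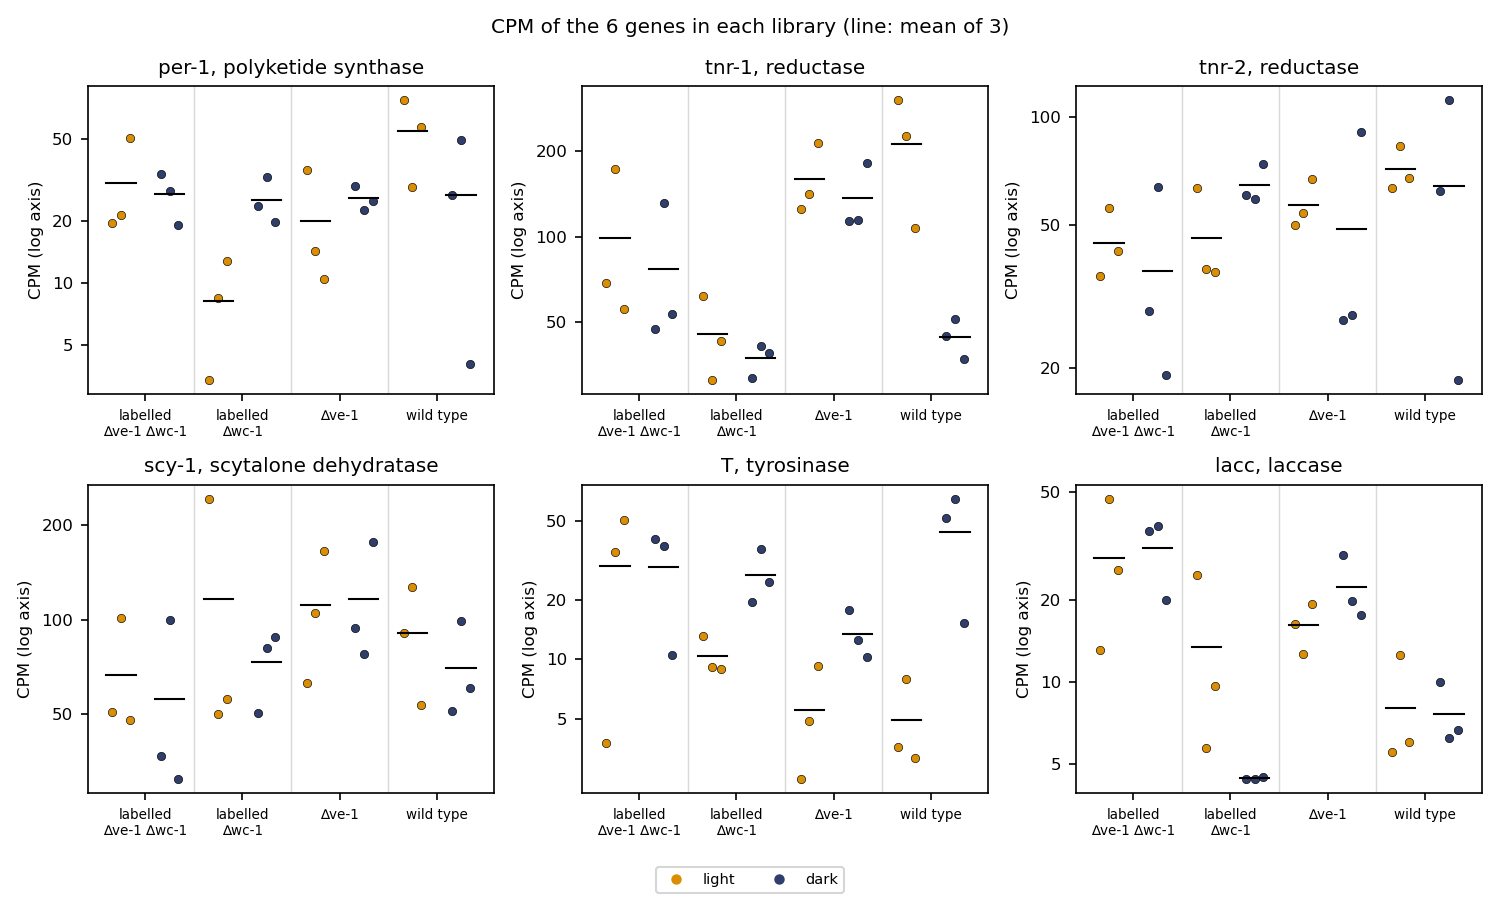
CPM (log axis) of each of the 6 genes in the 24 libraries, by strain and light condition; points are libraries and lines are means of 3. *tnr-1* sits between 107 and 302 CPM in wild-type light, above all 3 wild-type dark libraries, *T* is at most 7.95 CPM in wild-type light, and *lacc* is between 4.398 and 4.48 CPM in the ∆*wc-1*-labelled dark libraries.

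A gene was called when edgeR's quasi-likelihood test, fitted on all 24 libraries, gave an adjusted p (Benjamini-Hochberg) under 0.05 and the log2 fold change was beyond 1 in size. The labels and methods do not say how pooled tissue corresponds to the libraries, so p-values measure the spread between these libraries, which may be partly technical. Over 12 comparisons of 2 conditions, 9 of the 72 member tests were calls: 3 for *tnr-1*, 3 for *lacc*, 2 for *T*, 1 for *per-1*, and none for *tnr-2* or *scy-1*. Of all genes tested, 0 to 23.0% were called in these comparisons, with the share of each given below. By DESeq2, neither *tnr-2* nor *scy-1* was called in any of these comparisons, and limma-voom called *tnr-2* in 1 of them. The shares of all genes are those of the edgeR fit of all 24 libraries throughout. Counts of members from other settings have no such share beside them, and those settings called other numbers of genes. In bulk tissue, fewer cells that express a gene and less RNA per cell cannot be told apart.

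Light changed 2 of the 6 members in the wild type, beside 11.4% of the 9412 genes tested: *tnr-1* was higher, beside 5.13% of all genes, and *T* lower, beside 6.23%. The median log2 fold change of the members was 0.26, and that of all genes -0.07. In ∆*ve-1* no member was called by edgeR, beside 0.106% of all genes, and 0 members had an unadjusted p below 0.05, beside 5.81%. The ∆*ve-1* ∆*wc-1*-labelled libraries likewise had no call among the members, beside 0% of all genes, and 0 members at an unadjusted p below 0.05, beside 1.33%. Neither DESeq2 nor limma-voom called a member in these strains. For the ∆*wc-1*-labelled libraries edgeR also called 0 members, beside 0% of all genes, but 2 members, *per-1* and *lacc*, had an unadjusted p below 0.05, beside 14.1%. There DESeq2 called 0 members and limma-voom 2, *per-1* (log2 fold change -1.21, adjusted p = 0.0473) and *T* (-1.45, adjusted p = 0.0185).

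**Figure D2:**
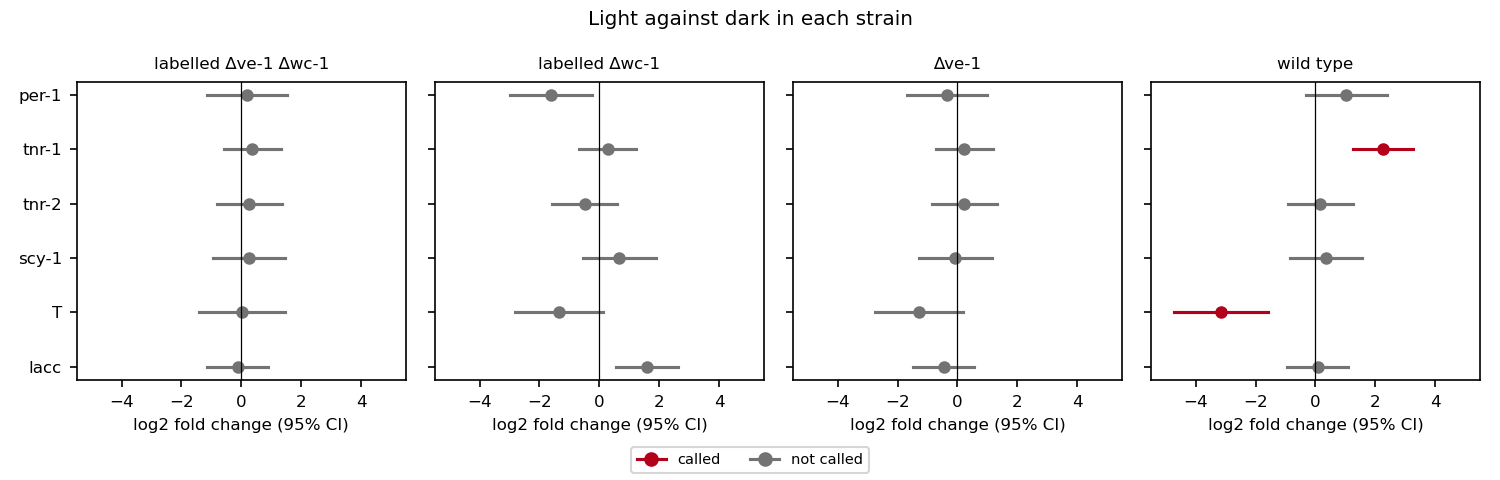
Log2 fold change of light against dark with its 95% confidence interval for each of the 6 genes, in 1 panel per strain; red marks calls. The calls are *tnr-1* at 2.25 and *T* at -3.17 in the wild type, and in the ∆*ve-1* ∆*wc-1*-labelled libraries all 6 estimates lie between -0.12 and 0.36.

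Each mutant was then compared with the wild type in the same light condition, with the wild-type libraries shared by the 3 comparisons of a condition. In the dark, 2 of 6 members were called in ∆*ve-1*, beside 23.0% of all genes: *tnr-1* and *lacc*, both higher, as were 11.1% of all genes. With any 1 of these 6 libraries left out, 1 member was called. Without wild-type dark replicate 3 it was neither *tnr-1* nor *lacc* but *T*, which was lower (-2.18, edgeR adjusted p = 0.0485). Without any other it was *tnr-1* or *lacc*. Among the ∆*ve-1* ∆*wc-1*-labelled libraries, 1 of 6 was called, beside 11.3% of all genes: *lacc*, which was higher, as were 5.79%. The ∆*wc-1*-labelled ones had 0 of 6 called by edgeR, beside 0.0106% of all genes, with 0 at an unadjusted p below 0.05, beside 1.72%, and 0 by DESeq2 or limma-voom.

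In light, 0 of 6 members were called in ∆*ve-1* by edgeR, beside 4.32% of all genes, with 1, *per-1*, at an unadjusted p below 0.05, beside 20.4%, and 0 by DESeq2 or limma-voom. The ∆*wc-1*-labelled libraries had 2 of 6 called, beside 10.5% of all genes: *per-1* and *tnr-1*, both lower, as were 4.77%. The ∆*ve-1* ∆*wc-1*-labelled ones had 2 of 6 called, beside 6.53% of all genes: *T* and *lacc*, both higher, as were 3.04%. Against ∆*ve-1*, the ∆*ve-1* ∆*wc-1*-labelled libraries had 0 of 6 members called by edgeR in the dark, beside 0.0212% of all genes, with 0 at an unadjusted p below 0.05, beside 4.61%, and 0 by DESeq2 or limma-voom. In light they had 0 of 6 by edgeR, beside 0.701%, but 1, *T*, at an unadjusted p below 0.05, beside 8.24%. DESeq2 also called *T* there, and limma-voom called 0 members.

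**Figure D3:**
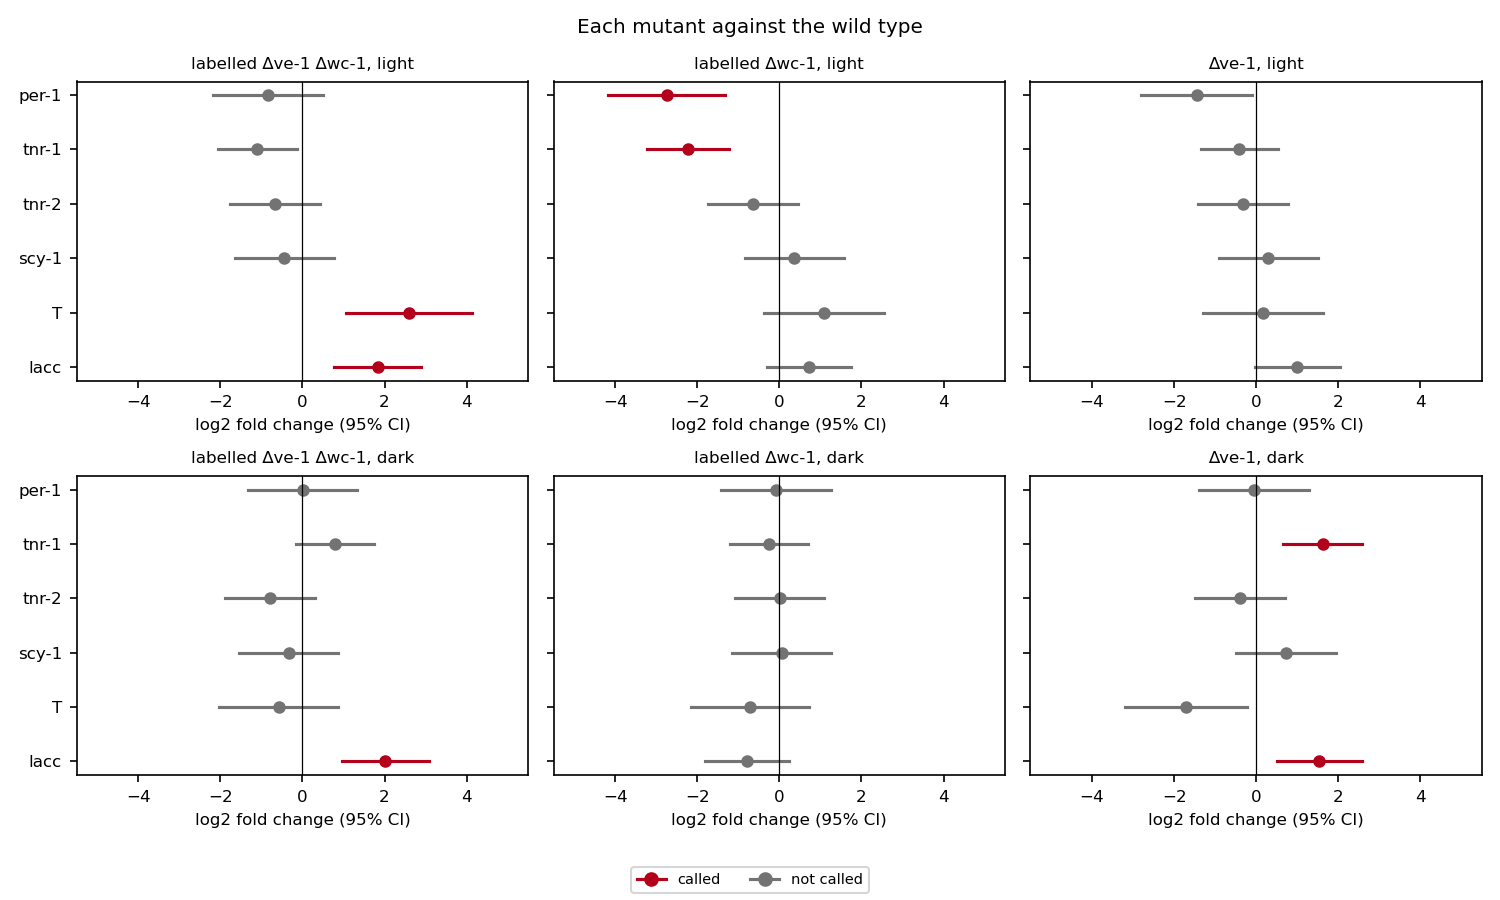
Log2 fold change of each mutant against the wild type with its 95% confidence interval for the 6 genes, light in the upper row and dark in the lower; red marks calls. In the dark the calls are *tnr-1* and *lacc* in ∆*ve-1* (1.62 and 1.54) and *lacc* in the ∆*ve-1* ∆*wc-1*-labelled libraries (2.02); in light *per-1* and *tnr-1* are lower in the ∆*wc-1*-labelled libraries (-2.74 and -2.22), and *T* and *lacc* higher in the ∆*ve-1* ∆*wc-1*-labelled ones (2.60 and 1.83).

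*per-1*, whose product makes the polyketide of perithecial melanin, had 77.8, 29.3 and 57.5 CPM in wild-type light, against 26.8, 49.8 and 4.04 CPM in wild-type dark. The groups overlapped, and the dark libraries alone spanned more than a 10-fold range because replicate 3, which stood apart across genes, was lowest. The log2 fold change of light was 1.03 (95% confidence interval -0.32 to 2.37; edgeR adjusted p = 0.292). In the ∆*wc-1*-labelled light libraries, *per-1* had 3.35, 8.41 and 12.7 CPM, all below the lowest wild-type light library. It was lower by a log2 fold change of -2.74 (standard error 0.68, edgeR adjusted p = 0.0125). This call held with each of the 6 libraries left out in turn (log2 fold changes of -3.21 to -2.37, adjusted p at most 0.0475), and it was lost when only these 6 libraries were fitted (-2.80, adjusted p = 0.0777).

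The ∆*wc-1*-labelled dark libraries had 23.7, 32.6 and 19.7 CPM of *per-1*, all above the light libraries of that strain. The light effect in that strain, a log2 fold change of -1.62, was not called (edgeR adjusted p = 0.284), and its difference from the light effect in the wild type was -2.65 (SE 0.92, edgeR adjusted p = 0.141), called with the share of the 10 most abundant genes in the counts as a covariate (-3.54, adjusted p = 0.0229). In ∆*ve-1*, *per-1* had 35.3, 14.3 and 10.5 CPM in light, against 29.8, 22.7 and 25.0 CPM in the dark. These overlapped, and against the wild type in light the log2 fold change was -1.45 (edgeR adjusted p = 0.213), called with the same covariate (-2.11, adjusted p = 0.0358). In the ∆*ve-1* ∆*wc-1*-labelled libraries, *per-1* had 19.5, 21.4 and 51.0 CPM in light, against 33.8, 28.1 and 19.2 CPM in the dark. Mean levels of *per-1* in the dark were 27.0, 25.3, 25.8 and 26.9 CPM in the ∆*ve-1* ∆*wc-1*-labelled libraries, the ∆*wc-1*-labelled ones, ∆*ve-1* and the wild type, which differed by less than their spread (SD 3.58 to 22.9 CPM, n = 3 each).

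*tnr-1* encodes a hydroxynaphthalene reductase. It had 302, 227 and 107 CPM in wild-type light, against 44.8, 51.3 and 37.3 CPM in wild-type dark. All light libraries were above all dark libraries. The log2 fold change was 2.25 (SE 0.47, a 4.77-fold rise, edgeR adjusted p = 0.00459). The call held with each of the 6 libraries left out in turn (1.91 to 2.57, adjusted p at most 0.0282). It was lost when the share of the 10 most abundant genes in the counts entered as a covariate (1.19, adjusted p = 0.0782); that share was 18.7 to 27.1% in wild-type light and 6.41 to 9.31% in wild-type dark.

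In the ∆*ve-1* mutant, *tnr-1* was above the wild-type dark level in both conditions. It had 126, 141 and 213 CPM in light, against 114, 114 and 181 CPM in the dark, and these overlapped (log2 fold change 0.23, 95% confidence interval -0.72 to 1.17). In the dark the 3 ∆*ve-1* libraries were above all 3 wild-type libraries, a log2 fold change of 1.62 (3.07-fold, SE 0.46, edgeR adjusted p = 0.0165). The call was lost without wild-type dark replicate 1 (adjusted p = 0.0533) or 3 (0.0677), without ∆*ve-1* dark replicate 3 (0.0624), and with the covariate of the 10 most abundant genes (0.76, adjusted p = 0.187), a share of 16.3 to 21.4% in ∆*ve-1* dark. In light ∆*ve-1* and the wild type overlapped (-0.41, 95% confidence interval -1.35 to 0.54). The light effect in ∆*ve-1* was smaller than that in the wild type by 2.03 on the log2 scale, a difference that edgeR did not call (-2.03, SE 0.65, adjusted p = 0.106), and that DESeq2 (adjusted p = 0.0390), limma-voom (0.00822) and edgeR on the 12 libraries alone (0.0331) did.

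The ∆*wc-1*-labelled libraries had *tnr-1* at 61.8, 31.3 and 43.1 CPM in light, against 31.8, 41.2 and 39.2 CPM in the dark. Both groups overlapped wild-type dark, and no light library reached the lowest of wild-type light. In light the level was lower than in the wild type by a log2 fold change of -2.22 (standard error 0.47, edgeR adjusted p = 0.00487), which held with each of the 6 libraries left out in turn (-2.54 to -1.88, adjusted p at most 0.0296) and was lost when only these 6 were fitted (adjusted p = 0.0763). The difference between the light effects was -1.98 (SE 0.65) and was called by limma-voom (adjusted p = 0.00308) but not by edgeR (adjusted p = 0.115). In the ∆*ve-1* ∆*wc-1*-labelled libraries, *tnr-1* had 68.7, 173 and 55.6 CPM in light, against 47.3, 131 and 53.4 CPM in the dark. Replicate 2 was the highest in either condition, and these 2 libraries had a rank correlation (Spearman, over genes) of 0.964. Against wild-type light the log2 fold change was -1.10 (edgeR adjusted p = 0.148), and without light replicate 2 it was called (-1.77, adjusted p = 0.0424).

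Over the 24 libraries, the level of *tnr-1* on the log2(CPM + 1) scale gave a Pearson r of 0.84 with the log2 summed level of the 5 asexual markers, of 0.73 without *eas*, and of 0.80 with the log2 share of the 10 most abundant genes. With the log2 summed level of 5 markers of sexual development (*pre-1*, *matA-1*, *fsd-1*, *pp-1* and *adv-1*) the r was -0.89. It was 0.38 when *ccg-4*, a mating pheromone gene, was added to that sum. The libraries share strains, conditions and depth, so these are descriptions. The part of the markers in the changes of *tnr-1* was not tested. The share of the 10 most abundant genes entered only as the covariate given above. It did not overlap between wild-type light and dark, or between ∆*ve-1* dark and wild-type dark. That fit therefore cannot separate the share from light or strain in these comparisons.

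*tnr-2*, the other hydroxynaphthalene reductase gene, was called in none of the 12 comparisons, with log2 fold changes of -0.78 to 0.27 and standard errors of 0.52 to 0.53. In the wild type it had 63.4, 83.1 and 67.5 CPM in light, against 62.2, 111 and 18.5 CPM in the dark, where replicate 3 was again the lowest. These overlapped (log2 fold change 0.16, 95% confidence interval -0.93 to 1.25). The difference farthest from 0 was between the ∆*ve-1* ∆*wc-1*-labelled dark libraries, with 28.7, 63.7 and 19.1 CPM, and wild-type dark (-0.78, edgeR adjusted p = 0.354; limma-voom -1.43, adjusted p = 0.0119). In ∆*ve-1*, *tnr-2* had 49.9, 53.8 and 67.0 CPM in light, against 27.1, 28.1 and 90.8 CPM in the dark. The other libraries lay in the same range, with 63.2, 37.6 and 36.9 CPM in light and 60.7, 58.9 and 73.9 CPM in the dark for the ∆*wc-1*-labelled ones, and 36.1, 55.7 and 42.2 CPM in the ∆*ve-1* ∆*wc-1*-labelled light libraries. Over the 24 libraries, the levels of the 2 reductase genes had a Pearson r of 0.32 on the log2(CPM + 1) scale.

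*scy-1* encodes scytalone dehydratase, which acts between the reduction steps. It was called in none of the 12 comparisons, and its log2 fold changes ran from -1.06 to 0.73 with standard errors of 0.58 to 0.59. In the wild type it had 90.7, 127 and 53.3 CPM in light, against 51.2, 99.1 and 60.6 CPM in the dark. The groups overlapped (0.36, 95% confidence interval -0.85 to 1.57). The ∆*wc-1*-labelled libraries had 243, 50.1 and 55.8 CPM in light, against 50.5, 81.2 and 88.1 CPM in the dark, and the highest value of all 24 libraries was that of the light library that stood apart. In ∆*ve-1* it had 62.9, 105 and 166 CPM in light, against 94.2, 77.7 and 177 CPM in the dark, with replicate 3 the highest in both conditions. In the ∆*ve-1* ∆*wc-1*-labelled libraries it had 50.7, 101 and 47.9 CPM in light, against 36.6, 100.1 and 30.9 CPM in the dark, with replicate 2 the highest in both.

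*T*, the tyrosinase gene, was the member that light lowered. It had 3.62, 7.95 and 3.18 CPM in wild-type light, against 52.2, 64.9 and 15.3 CPM in wild-type dark. No light library reached the lowest dark library, which was replicate 3. The log2 fold change was -3.17 (SE 0.75, edgeR adjusted p = 0.00987). The call was lost only without wild-type light replicate 1 (-2.99, adjusted p = 0.0545), over the 6 libraries left out in turn (-3.70 to -2.78). NCU00777, whose span holds *T*, was not called: it had a mean of 54.9 CPM in wild-type light and 34.7 CPM in wild-type dark (log2 fold change 0.66, edgeR adjusted p = 0.408).

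In ∆*ve-1*, *T* had 2.47, 4.85 and 9.29 CPM in light, against 17.8, 12.5 and 10.2 CPM in the dark. The light libraries were again below all dark libraries, but the log2 fold change of -1.29 was not called (edgeR adjusted p = 0.921). The ∆*wc-1*-labelled libraries had 13.2, 9.20 and 8.997 CPM in light, against 19.5, 36.3 and 24.8 CPM in the dark. These did not overlap either (-1.36, edgeR adjusted p = 0.387). In the dark, ∆*ve-1* was at a log2 fold change of -1.71 against the wild type (edgeR adjusted p = 0.0802), which was called by limma-voom (-2.06, adjusted p = 0.00314), by edgeR on these 6 libraries (adjusted p = 0.0236) and without wild-type dark replicate 3 (-2.18, adjusted p = 0.0485). NCU00777, whose span holds *T*, was called higher there, with a mean of 116 CPM in ∆*ve-1* dark and 34.7 CPM in wild-type dark (1.74, edgeR adjusted p = 0.0228).

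The ∆*ve-1* ∆*wc-1*-labelled libraries had 3.78, 34.8 and 51.0 CPM of *T* in light, against 40.7, 37.4 and 10.5 CPM in the dark. Each condition held 1 low library, and the means of 29.9 and 29.5 CPM differed by less than the spread (log2 fold change 0.02, 95% confidence interval -1.42 to 1.45). The low light library, replicate 1, had a rank correlation (Spearman, over genes) of 0.963 with the low dark library, replicate 3. Against wild-type light *T* was called higher (2.60, SE 0.74, edgeR adjusted p = 0.0371), although light replicate 1 lay inside the wild-type range. The call was lost without wild-type light replicate 1 (adjusted p = 0.162) or 3 (0.0835), without light replicate 2 (0.0769) or 3 (0.175) labelled ∆*ve-1* ∆*wc-1*, by limma-voom (0.329) and when only these 6 libraries were fitted (0.123). Against ∆*ve-1* light the log2 fold change was 2.44 (edgeR adjusted p = 0.188), called by DESeq2 (adjusted p = 0.0235) and without light replicate 1 labelled ∆*ve-1* ∆*wc-1* (2.96, adjusted p = 0.0319). The light effect differed from that in the wild type by 3.18 (SE 1.00, edgeR adjusted p = 0.0854), a difference called by DESeq2 (adjusted p = 0.0259) and without the same library (3.71, adjusted p = 0.0337).

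*lacc*, which encodes a laccase, was called in both strains without VE-1 and not for light in the wild type. It had 5.56, 12.6 and 6.03 CPM in wild-type light, against 10.04, 6.25 and 6.65 CPM in wild-type dark (log2 fold change 0.07, 95% confidence interval -0.95 to 1.10). The groups overlapped. In ∆*ve-1* it had 16.3, 12.7 and 19.4 CPM in light, against 29.2, 19.9 and 17.7 CPM in the dark, and all 6 were above the wild-type libraries of their condition. In the dark the log2 fold change against the wild type was 1.54 (SE 0.50, 2.91-fold, edgeR adjusted p = 0.0301). The call was lost without wild-type dark replicate 2 (adjusted p = 0.0999) or 3 (0.0989), without ∆*ve-1* dark replicate 1 (0.121) or 2 (0.0522), and with the covariate of the 10 most abundant genes (0.85, adjusted p = 0.246). In light it was 1.00 (SE 0.49, edgeR adjusted p = 0.260), called with that covariate (1.36, adjusted p = 0.0422).

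The ∆*ve-1* ∆*wc-1*-labelled libraries had the highest mean levels of *lacc*, with 13.2, 47.1 and 25.8 CPM in light, against 35.8, 37.4 and 20.1 CPM in the dark. These overlapped (log2 fold change -0.12). In the dark *lacc* was higher than in the wild type by a log2 fold change of 2.02 (standard error 0.51, 4.06-fold, edgeR adjusted p = 0.0129), and no libraries overlapped. The call was lost without wild-type dark replicate 2 (adjusted p = 0.0571) or 3 (0.0653) and without the dark replicate 2 labelled ∆*ve-1* ∆*wc-1* (0.0514). In light *lacc* was higher than in the wild type by 1.83 (SE 0.50, 3.56-fold, edgeR adjusted p = 0.0320), without overlap. This call was lost without wild-type light replicate 1 (adjusted p = 0.159) or 3 (0.0754), without light replicate 2 (0.144) or 3 (0.0729) labelled ∆*ve-1* ∆*wc-1*, by limma-voom (0.127) and when only these 6 libraries were fitted (0.127). Against ∆*ve-1* the log2 fold changes were 0.83 in light and 0.48 in the dark, with adjusted p of 0.723 and 0.917 by edgeR.

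In the ∆*wc-1*-labelled libraries, *lacc* had 24.8, 5.75 and 9.70 CPM in light, against 4.42, 4.398 and 4.48 CPM in the dark. The dark libraries were the lowest of all 24 for this gene and were nearly equal, and all light libraries were above them. The log2 fold change of 1.59 was not called (edgeR adjusted p = 0.231), and it was 0.80 without light replicate 1, the library that stood apart. Over the 24 libraries, *lacc* gave a Pearson r of 0.75 with the log2 summed level of 6 markers of sexual development (*pre-1*, *ccg-4*, *matA-1*, *fsd-1*, *pp-1* and *adv-1*), a description whose part in the levels was not tested. The sum was mostly *ccg-4*, a mating pheromone gene, which alone gave an r of 0.73, while the sum of the other 5 markers gave -0.34. All 6 markers summed to 2219 to 28759 CPM in the ∆*ve-1* ∆*wc-1*-labelled dark libraries, 2845 to 18125 CPM in ∆*ve-1* dark and 585 to 1039 CPM in wild-type dark. *ccg-4* was higher in the ∆*ve-1* ∆*wc-1*-labelled dark libraries and in ∆*ve-1* dark, with means of 13909 and 7929 CPM, against 247 CPM in wild-type dark. *adv-1*, which encodes a transcription factor of sexual development, was lower, with 22.8 and 21.6 CPM, against 111 CPM in wild-type dark, and *pp-1* was called lower in ∆*ve-1* (115 CPM, against 283 CPM in wild-type dark) and not in the ∆*ve-1* ∆*wc-1*-labelled libraries (161 CPM).

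The difference of each light effect from that in the wild type was called for 0 of 6 members in ∆*ve-1*, in the ∆*wc-1*-labelled libraries and in the ∆*ve-1* ∆*wc-1*-labelled ones, beside 0.786, 2.44 and 3.08% of all genes, with edgeR adjusted p of 0.0854 to 0.972. In the same order, 1, 3 and 2 members had an unadjusted p below 0.05, beside 19.9, 15.2 and 18.9% of all genes, DESeq2 called 1, 0 and 1, and limma-voom called 1, 1 and 0. Without light replicate 2 labelled ∆*ve-1* ∆*wc-1*, edgeR called *tnr-1* in the last of these (-2.56, adjusted p = 0.0235). With the covariate of the 10 most abundant genes, edgeR called *per-1* in the ∆*wc-1*-labelled libraries (-3.54, adjusted p = 0.0229). Different light effects of the members in the mutants were thus not shown by edgeR on all 24 libraries without a covariate, also for *tnr-1* and *T*, which passed the threshold for light in the wild type and in no mutant.

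The order of the mean levels over the 8 conditions differed between members. *per-1*, *tnr-1* and *tnr-2* were highest in wild-type light, with means of 54.9 ± 24.4, 212 ± 98.2 and 71.3 ± 10.4 CPM (SD, n = 3), but were lowest in different conditions. *per-1* was lowest in the ∆*wc-1*-labelled light libraries (8.17 ± 4.70 CPM), *tnr-1* in the ∆*wc-1*-labelled dark libraries (37.4 ± 4.93 CPM) and *tnr-2* in the ∆*ve-1* ∆*wc-1*-labelled dark libraries (37.2 ± 23.5 CPM; SD, n = 3). *T* was lowest in wild-type light (4.92 ± 2.64 CPM) and highest in wild-type dark (44.2 ± 25.8 CPM; SD, n = 3). *lacc* was highest in the ∆*ve-1* ∆*wc-1*-labelled dark libraries (31.1 ± 9.56 CPM; SD, n = 3). *scy-1* was highest in ∆*ve-1* dark, with 116 ± 53.3 CPM, and lowest in the ∆*ve-1* ∆*wc-1*-labelled dark libraries, with 55.9 ± 38.4 CPM (SD, n = 3). Of the 42 steps between next neighbours in these orders, 37 were smaller than the larger SD of the 2 conditions. For *tnr-1* the steps from wild-type light down to the ∆*ve-1* ∆*wc-1*-labelled light libraries were all smaller than that SD.

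The levels of the members were loosely related. Over the 24 libraries the pairwise Pearson r of log2(CPM + 1) ran from -0.43, between *tnr-1* and *T*, to 0.59, between *tnr-2* and *scy-1*. Within conditions, with the mean of each condition removed, *tnr-1* and *scy-1* had 0.82, *tnr-2* and *scy-1* had 0.66, and *T* and *lacc* had 0.63, while *per-1* had -0.29 with *scy-1*. The libraries share depth and composition, so these values describe them only.

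**Figure D4:**
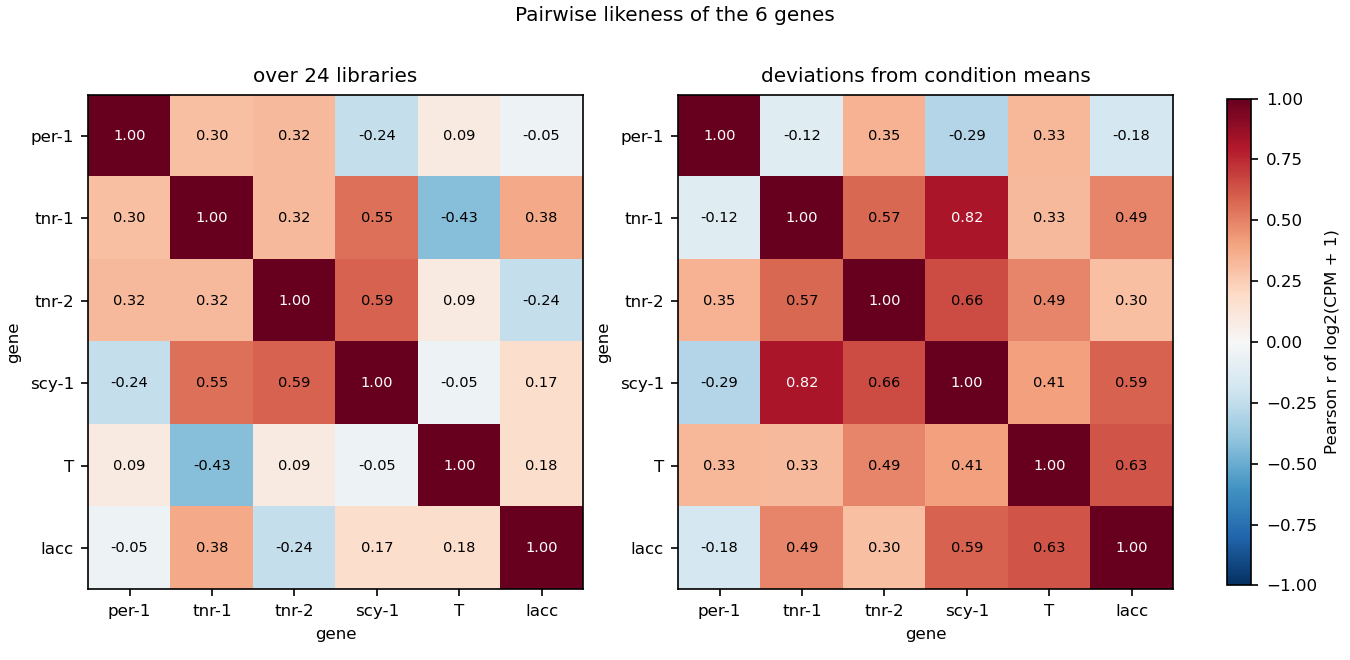
Pearson r between the levels, log2(CPM + 1), of each pair of the 6 genes over the 24 libraries (left) and after the mean of each condition was removed (right); both axes list the genes. The pair *tnr-1* and *scy-1* has 0.55 on the left and 0.82 on the right, and *tnr-1* and *T* have -0.43 on the left and 0.33 on the right.

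Of the other 9411 genes tested, those whose log2(CPM + 1) was most like that of a member over the 24 libraries were taken. For *tnr-1* they were NCU00748 and *met-5* (NCU07001), both with a Pearson r of 0.95. For *lacc* they were NCU09421 (0.90) and NCU06522 (0.89), and for *scy-1* NCU03313 and NCU00895, both 0.88. *T* was most like NCU04935 and NCU00779, both 0.87. NCU00779 lies 2978 bases from *T* on chromosome I (7206321 to 7207789) and had 1.58 CPM in wild-type light and 12.3 CPM in wild-type dark, on average (edgeR adjusted p = 0.0792). Its annotated span overlaps that of NCU00778 (7206324 to 7209164), so its counts are uncertain in the same way as those of *T*. *per-1* was most like NCU02078 (0.84) and NCU00128 (0.83), and *tnr-2* most like NCU05858 (0.74) and NCU05767 (0.68). No member was among the genes named for another.

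A further 16 genes named for pigment, laccases, tyrosinases or polyketide synthases were tested, and some of these names come from tables of the study that hold genes called on these libraries. Light in the wild type changed 3 of 16, beside 11.4% of all genes tested. The polyketide synthase gene *pks-3* (log2 fold change 3.14) and the tyrosinase gene *ty-6* (1.64) were higher with every library left out in turn, and the polyketide synthase gene *pks-6* was lower (-6.17), a call lost without wild-type dark replicate 1 (adjusted p = 0.0533) and by limma-voom (0.174). In the mutants 0 of 16 were called for light by edgeR, and 0, 3 and 1 had an unadjusted p below 0.05 in ∆*ve-1*, the ∆*wc-1*-labelled and the ∆*ve-1* ∆*wc-1*-labelled libraries. In the same order, 0.106, 0 and 0% of all genes were called, and 5.81, 14.1 and 1.33% had an unadjusted p below 0.05.

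In the dark, ∆*ve-1* had 2 of 16 higher and 4 lower than the wild type, beside 23.0% of all genes called. *pig-1* (-2.46) and *pks-6* were lower with every library left out. *pks-6* had 0.449, 0 and 0 CPM in ∆*ve-1* dark, against 154, 36.6 and 5.38 CPM in wild-type dark, so its fitted log2 fold change of -8.88 rests on the 10 reads counted in ∆*ve-1* dark replicate 1 and was -14.35 without that library and -7.24 to -9.48 without any other. The laccase gene *lacc-8* was lower (-4.09), a call lost without wild-type dark replicate 2 (adjusted p = 0.0658) or ∆*ve-1* dark replicate 1 (0.0835) or 3 (0.0622). *pig-2*, a pigment gene by its name, was lower too (-1.53), a call lost without wild-type dark replicate 1 (0.0796), 2 (0.109) or 3 (0.0733) or ∆*ve-1* dark replicate 1 (0.149) or 2 (0.114). The higher genes were *pks-3* (2.44), lost without wild-type dark replicate 3 (0.0729) or ∆*ve-1* dark replicate 1 (0.0901), and *pks-5* (1.87), lost without wild-type dark replicate 2 (0.0911) or 3 (0.0695) or ∆*ve-1* dark replicate 1 (0.127) or 2 (0.0510). With the covariate of the 10 most abundant genes, 4 of these 6 calls were lost: *pig-2* (-1.10, adjusted p = 0.211), *lacc-8* (0.0648), *pks-3* (0.0539) and *pks-5* (1.05, 0.214). The call of *pig-2* was also lost when only these 6 libraries were fitted (0.0788). The ∆*ve-1* ∆*wc-1*-labelled dark libraries had 1 of 16 higher, *pks-3* (2.69), and 2 lower, *pig-1* (-5.79) and *pks-6* (-5.19), beside 11.3% of all genes. Of these, *pks-3* lost the call without wild-type dark replicate 3 (0.0854) or their own dark replicate 1 (0.0653) or 2 (0.0514), and *pks-6* without wild-type dark replicate 1 (0.107) or their own dark replicate 1 (0.0866), and both when only these 6 libraries were fitted (0.0588 for *pks-3* and 0.0798 for *pks-6*). The ∆*wc-1*-labelled dark libraries had 0 of 16 called by edgeR, beside 0.0106% of all genes, and 0 at an unadjusted p below 0.05, beside 1.72%.

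In light, ∆*ve-1* had 1 of 16 lower than the wild type, *pig-1*, beside 4.32% of all genes. The ∆*wc-1*-labelled libraries had 4 of 16 called, beside 10.5%. Of these, *pks-6* (7.22) was higher and *pks-3* (-3.38) lower with every library left out, but *pks-6* was not called by limma-voom (8.44, adjusted p = 0.122). *ty-6* was lower (-1.41), a call lost without replicate 2 of wild-type light (adjusted p = 0.0664) or of their own light libraries (0.0674) and when only these 6 libraries were fitted (0.134). The laccase gene *lacc-4* was called higher there (2.79), with 333, 20.4 and 15.95 CPM in these libraries, against 27.8, 16.1 and 9.34 CPM in wild-type light. The value of 333 CPM is that of the library that stood apart, and without it the log2 fold change was 0.04 (adjusted p = 0.980); the call was also lost without wild-type light replicate 1 (0.0645), 2 (0.115) or 3 (0.125), by limma-voom (0.895) and when only these 6 libraries were fitted (0.349). The ∆*ve-1* ∆*wc-1*-labelled light libraries had 2 of 16 lower, beside 6.53% of all genes: *pig-1* and *ty-6* (-1.24), the second a call lost without wild-type light replicate 1 (0.146) or 2 (0.140) or their own light replicate 2 (0.115) or 3 (0.192), with the replicate number as a block (0.0578), with the covariate (0.0680), by limma-voom (0.0573) and when only these 6 libraries were fitted (0.254). Between the ∆*ve-1* ∆*wc-1*-labelled libraries and ∆*ve-1*, 0 of 16 were called by edgeR in either condition, beside 0.0212% of all genes in the dark and 0.701% in light. At an unadjusted p below 0.05 there were 2 in the dark, beside 4.61%, and 1 in light, beside 8.24%. *pks-3* was also called for a smaller light effect in the ∆*wc-1*-labelled libraries than in the wild type (-3.81, edgeR adjusted p = 0.0411). That call was lost without wild-type dark replicate 1 (0.0673) or 3 (0.0912), wild-type light replicate 1 (0.0852) or 3 (0.0604), or the ∆*wc-1*-labelled dark replicate 1 (0.0801) or 2 (0.149) or light replicate 1 (0.0650) or 2 (0.0922), and when only these 12 libraries were fitted (0.0796).

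*pig-1*, a pigment gene by its name, was lower in both strains without VE-1. It had 0.582, 0.670 and 0.333 CPM in the ∆*ve-1* ∆*wc-1*-labelled light libraries and 0.888, 0.593 and 0.699 CPM in ∆*ve-1* light, against 14.9, 11.3 and 8.95 CPM in wild-type light. In the dark it had 0.149, 0 and 0.113 CPM in the ∆*ve-1* ∆*wc-1*-labelled libraries and 1.26, 1.39 and 0.390 CPM in ∆*ve-1*, against 3.12, 4.67 and 8.97 CPM in the wild type. All libraries without VE-1 were below all wild-type libraries of their condition. The log2 fold changes against the wild type were -5.79 to -2.46 (edgeR adjusted p of at most 0.00778). None of these 4 calls was lost with a library left out.

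The laccase gene *lacm-1*, which has been linked to melanin in *N. crassa*, had 18.3, 25.0 and 20.8 CPM in the ∆*ve-1* ∆*wc-1*-labelled dark libraries and 15.6, 22.7 and 28.9 CPM in ∆*ve-1* dark, against 40.0, 41.4 and 45.9 CPM in wild-type dark. The groups did not overlap, but the log2 fold changes of -0.99 and -0.92 (edgeR adjusted p = 0.0192 and 0.0167) were short of the threshold of 1. In the same strains *lacc* was higher than in the wild type. The tyrosinase gene *ty-6* had 143, 169 and 79.1 CPM in wild-type light, against 32.7, 38.8 and 53.6 CPM in wild-type dark, without overlap. It was thus higher in light by a log2 fold change of 1.64 (standard error 0.37, edgeR adjusted p = 0.00672), where *T* was lower, in the same libraries.

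**Figure D5:**
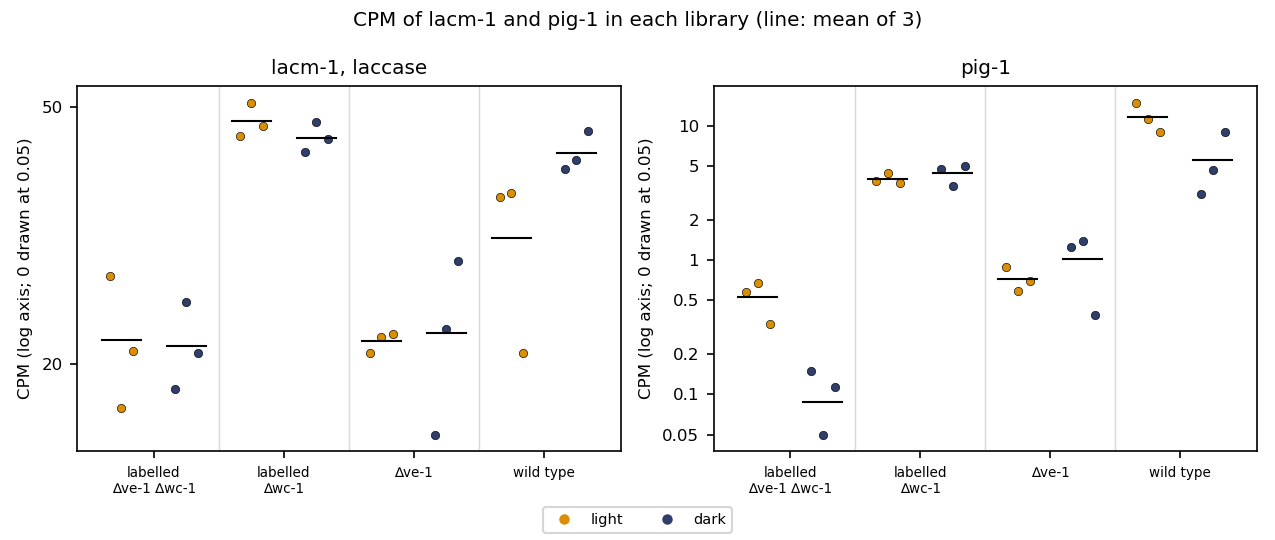
CPM (log axis) of *lacm-1* and *pig-1* in the 24 libraries, by strain and light condition; points are libraries, lines are means of 3, and the value of 0 is drawn at 0.05. *pig-1* is between 8.95 and 14.9 CPM in wild-type light and at most 1.39 CPM in all libraries of ∆*ve-1* or labelled ∆*ve-1* ∆*wc-1*.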

How the data were processed

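The values are raw counts per gene from strand-specific libraries of poly(A) RNA, made from pooled tissue of biological replicates. Reads were trimmed with fastp and mapped with STAR (version 2.7 in the submitters' processing notes) to the NC12 assembly. The authors then used featureCounts on first-strand reads and deposited whole-number counts that were not normalized.

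Counts were tested in R 4.3.3 with edgeR 4.0.16: TMM factors, edgeR's filter on low counts (9412 genes), 1 quasi-likelihood fit of all 24 libraries with a mean per condition (16 residual degrees of freedom), and Benjamini-Hochberg adjusted p-values over these genes. CPM used the same factors. All 10561 locus tags matched the RefSeq gene table of NC12, which gave the positions. Standard errors and confidence intervals rest on 3 libraries per condition.

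Alternatives were DESeq2 1.42.0, limma-voom with quality weights (limma 3.58.1), RLE factors, no filter, at least 5 CPM in 3 libraries, the adjusted p alone, the fit of only the libraries compared, the replicate number as a block, a covariate (the log2 share of the 10 most abundant genes), and each library left out. The methods were tested on simulated data, drawn independently for each gene and library. Such data lack the excess of even counts and the libraries that stand apart, so the methods were not tested under these features. All 6 members are named, the further genes where called (also *lacm-1*), and for each member the 2 genes with the highest Pearson r. The members, lists and alternatives were chosen with earlier results of these data known. Of the further genes, *pks-1* and *pks-2* were added by symbol after the data were seen. The names *tnr-2*, *scy-1*, *lacm-1*, *pig-1* and *ty-6* come from the study.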

Additional observations from a re-analysis of the deposited data

How the results depend on the processing

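No log2 fold change of a member that was called in any setting changed sign in another. Of 135 counts of called members over the settings that kept all libraries, 120 were within 1.5 times of those given, and the rest follow. DESeq2 called 1 member between the ∆*ve-1* ∆*wc-1*-labelled libraries and ∆*ve-1* in light, and 1 each for the light effects of ∆*ve-1* and of the ∆*ve-1* ∆*wc-1*-labelled libraries set against that of the wild type. By limma-voom, 2 were called for light among the ∆*wc-1*-labelled libraries, 2 between the ∆*ve-1* ∆*wc-1*-labelled and wild-type dark libraries and 0 between the light ones, and 1 each for the differences of light effects in ∆*ve-1* and in the ∆*wc-1*-labelled libraries. With the share of the 10 most abundant genes as a covariate, 1 was called for wild-type light, 0 for ∆*ve-1* set against wild-type darkness and 2 in light, and 1 for the difference of light effects in the ∆*wc-1*-labelled libraries. With only the libraries compared, 0 were called in light in either strain labelled as lacking *wc-1* against the wild type, and 1 for the difference of light effects in ∆*ve-1*. The cause was not tested. Leaving out 1 library of a comparison gave 1 to 2 calls for light in the wild type, 1 each time for ∆*ve-1* set against wild-type darkness, 0 to 1 in the dark and 0 to 2 in light between the ∆*ve-1* ∆*wc-1*-labelled libraries and the wild type, 0 to 1 between these libraries and ∆*ve-1* in light, and 0 to 1 for their difference of light effects. Leaving out light replicate 1 labelled ∆*wc-1* or wild-type dark replicate 3 where they enter only through the shared spread, chosen after the data were seen, moved no count of called members.

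Libraries with the same replicate number did not deviate together in general: the correlations of their deviations from the condition means were -0.51 to 0.76, and all 3 exceeded 0.1 in only 2 of the 12 comparisons. These were the dark ∆*wc-1*-labelled and the light ∆*ve-1* ∆*wc-1*-labelled libraries against the wild type, and no label says that a number marks a shared batch. With the replicate number as a block, the numbers of called members were the same, with 2 for light in the wild type, 2 for ∆*ve-1* set against wild-type darkness and 2 for the ∆*wc-1*-labelled libraries in light. Among the further genes, the block ended the calls of *lacc-4* (adjusted p = 0.0764) against wild-type light in the ∆*wc-1*-labelled libraries, of *ty-6* (0.0578) in the ∆*ve-1* ∆*wc-1*-labelled ones and of the difference of light effects of *pks-3* (0.0506).

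The median log2 fold change of all genes was over 0.1 in the ∆*ve-1* ∆*wc-1*-labelled light libraries against the wild type (0.14 with TMM and with RLE factors), where *T* and *lacc* were called, and in the difference of light effects of ∆*ve-1* from the wild type (0.13 with TMM and 0.05 with RLE). With 3 libraries per condition, the standard errors of the log2 fold changes of *per-1* and *T* were 0.64 to 0.75 in the 12 comparisons of 2 conditions, which limits what was detectable. The numbers of all genes called, behind the percentages, moved more: for light in the wild type 1069 became 541 to 2243, for ∆*ve-1* against the wild type 2166 became 1153 to 3485 in the dark and 407 became 94 to 1371 in light, and for the ∆*wc-1*-labelled light libraries 992 became 138 to 2281.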
